A study of Mus musculus with 6 samples.

Results

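The genes described here are the nuclear-encoded subunits of the oxidative phosphorylation complexes in mouse bone marrow-derived mesenchymal stromal cells (MSCs). They were taken by symbol as every gene named Nduf (a, b, c, s or v with a number), Sdha to Sdhd, Uqcr, Cox (families from Cox4 to Cox8 with the letter a, b or c after the number) or Atp5, together with Cyc1 and Cycs. This gave 84 of the 23420 genes in the table: 35 for complex I, 4 for complex II, 10 for complex III with cytochrome c, 18 for complex IV and 17 for complex V. Ndufa4 and its paralog Ndufa4l2 were placed with complex IV despite their symbols, and Atp5s and Atp5sl were kept because their symbols match, although they are not structural subunits of the ATP synthase.

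The study compared MSCs that carry the thymoproteasome (MSC-TPr) with control MSCs (Ctl MSC) to ask how its expression alters the transcriptome. Both groups were grown from the femurs of young adult female C57BL/6 mice and were transduced with the same retroviral construct, which carries eGFP, so that the control cells held the empty construct and the MSC-TPr cells one that adds the coding sequences of Psmb9 (β1i), Psmb10 (β2i) and Psmb11 (β5t). Polyadenylated RNA of 3 libraries of each group was sequenced, with 16158756 to 22158887 reads counted on genes per library. The labels do not say whether the 3 libraries of a group came from separate cultures or mice, so that p-values measure only the spread between these libraries, which may be technical.

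Oxidative phosphorylation takes place in the inner mitochondrial membrane. Complex I (NADH dehydrogenase) and complex II (succinate dehydrogenase) pass electrons to ubiquinone, complex III (cytochrome bc1) passes them on to cytochrome c, complex IV (cytochrome c oxidase) reduces oxygen, and complex V (ATP synthase) uses the resulting proton gradient to make ATP. Most subunits are encoded in the nucleus and a core set in mitochondrial DNA, and many of the nuclear genes are known targets of the transcription factors NRF1 and GABP (also called NRF2), which act with the coactivator PGC-1α. MSCs in culture draw on both glycolysis and oxidative phosphorylation, with the balance known to shift with oxygen, growth and differentiation.

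The promoter windows of the members were searched for the letters GCGCATGC, the core of the NRF1 motif, and CCGGAAG, an ETS core of the kind bound by GABP, on both strands and with overlapping matches counted. Each window ran from 250 bases before the annotated start of a gene to 50 bases after it (RefSeq, build GRCm38.p6), and 70 of the 84 members had one. The NRF1 letters were found in 11 of the 70 (15.7%), against 3.05% of 27025 genes with a window, and among genes tested in the RNA-seq they were found in 11 of 66 members (16.7%) against 6.27% of 8950 genes. The ETS letters were found in 16 of the 70 (22.9%) against 9.93%, and among genes tested in 24.2% of members against 20.6%. Both were found in 5 windows. A match is a description of letters and not a binding site.

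The windows of 5 members follow, 5′ to 3′ on the strand of the gene, shown because these members lay wholly above or below the other group in the comparison described further on and hold at least 1 match. Capitals mark the matches. The windows lie at chr6:50566520-50566819 on the minus strand for Cycs (1 NRF1 match), chr17:56717512-56717811 on the plus strand for Ndufa11 (2 NRF1 matches that overlap), chr19:7217567-7217866 on the minus strand for Cox8a (2 ETS matches), chr2:90904672-90904971 on the minus strand for Ndufs3 (2 ETS matches) and chr4:140961021-140961320 on the plus strand for Sdhb (1 of each).
Cycs: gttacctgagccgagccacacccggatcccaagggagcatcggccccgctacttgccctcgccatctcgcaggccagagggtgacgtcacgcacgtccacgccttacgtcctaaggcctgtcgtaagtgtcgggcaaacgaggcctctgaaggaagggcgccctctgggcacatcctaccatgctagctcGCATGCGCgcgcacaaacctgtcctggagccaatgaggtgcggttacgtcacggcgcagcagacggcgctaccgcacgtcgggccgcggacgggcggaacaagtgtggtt
Ndufa11: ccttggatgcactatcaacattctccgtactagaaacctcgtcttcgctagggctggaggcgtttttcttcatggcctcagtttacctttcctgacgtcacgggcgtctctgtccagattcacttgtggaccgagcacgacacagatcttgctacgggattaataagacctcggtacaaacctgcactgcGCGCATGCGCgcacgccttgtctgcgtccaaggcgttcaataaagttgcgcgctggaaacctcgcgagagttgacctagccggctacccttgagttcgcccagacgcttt
Cox8a: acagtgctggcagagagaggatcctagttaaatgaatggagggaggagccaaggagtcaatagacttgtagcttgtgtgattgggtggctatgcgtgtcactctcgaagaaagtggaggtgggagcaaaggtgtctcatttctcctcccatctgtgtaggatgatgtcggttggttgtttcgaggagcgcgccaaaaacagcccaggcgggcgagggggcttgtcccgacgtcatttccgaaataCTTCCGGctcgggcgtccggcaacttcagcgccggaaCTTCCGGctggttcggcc
Ndufs3: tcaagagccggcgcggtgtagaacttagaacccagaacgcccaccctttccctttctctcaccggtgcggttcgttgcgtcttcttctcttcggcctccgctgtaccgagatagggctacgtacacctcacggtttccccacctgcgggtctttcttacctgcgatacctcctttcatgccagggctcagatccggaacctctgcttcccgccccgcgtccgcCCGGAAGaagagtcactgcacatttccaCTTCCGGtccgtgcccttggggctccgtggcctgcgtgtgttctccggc
Sdhb: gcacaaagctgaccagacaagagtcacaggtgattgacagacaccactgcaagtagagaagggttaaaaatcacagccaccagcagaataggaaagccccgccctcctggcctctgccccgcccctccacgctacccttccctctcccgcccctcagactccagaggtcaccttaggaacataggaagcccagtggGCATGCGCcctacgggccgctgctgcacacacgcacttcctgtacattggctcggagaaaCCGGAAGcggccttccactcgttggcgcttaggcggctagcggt

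Members were abundant and were detected in nearly every library. Of the 84, 78 passed edgeR's filter on low counts and were tested, and 74 had at least 100 reads in every library. The 6 that did not pass are all in complex IV: Cox6b2, Cox7a1, Cox7b2, Cox8b, Cox8c and Ndufa4l2. Summed over all members, reads made up 0.728% to 0.975% of each library. Levels in CPM are read counts scaled to library size after TMM normalization, and 3 reads, taken as the smallest amount detectable, correspond to 0.139 to 0.181 CPM, which covers counting error only.

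Per length (RPKM, the CPM divided by the exon length in kilobases, mean of 6 libraries), the highest member was Atp5b, the catalytic β subunit of the ATP synthase, at 337 RPKM. It was followed by Cox8a, a small structural subunit of complex IV, at 256 RPKM, by Atp5o, the subunit at the top of the peripheral stalk, at 202 RPKM, by Atp5a1, the α subunit, at 181 RPKM and by Cox6a1 at 175 RPKM. The level of Atp5o is uncertain, since 89.8% of its 50-base stretches also occur in other annotated entries. These include another entry named Atp5o and the overlapping gene Donson. The length of 530 bases is that of the matched entry alone. In complex III the highest was Uqcr10 at 134.9 RPKM, and in complex II the order was Sdhd at 77.5 RPKM, Sdha at 37.1, Sdhb at 35.0 and Sdhc at 26.1. All these orders rest on exons merged over the annotated transcripts of a gene, and could differ with another length. Merged exons were 4126 bases for Sdha and 2239 for Sdhb, while their longest coding transcripts were 2900 and 1142. In complex I, Ndufs5 lay lowest at 3.17 RPKM, but 31.1% of its 50-base stretches occur in a near-identical copy and reads may be split or dropped. Members shared short transcripts: the median merged exon length was 1737 bases over the 78 tested, against 4549.5 over all genes tested, with a median GC content of 50.2% against 49.4%.

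Isoform choice within complex IV was steep. The ubiquitous forms were present at high levels and the forms known from muscle, testis or lung were at or near 0, apart from Cox6a2, which is described further on. Cox8a reached 121 to 199 CPM, while Cox8b had 1 read in a single library and Cox8c had 0 reads in all 6, which allows up to 0.139 to 0.181 CPM. Cox4i1, which lies outside the symbol rule because of the i in its name, reached 219 to 350.1 CPM against 0 to 3 reads for the lung form Cox4i2. Cox7a1, the heart and muscle form, had 1 to 8 reads per library, Cox6b2 had 1 read in all and Cox7b2 had 0 to 2 reads. Cycs, the somatic cytochrome c, held nearly all reads of its pair, with 1 read of the testis form Cyct in a single library.

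**Figure D1:**
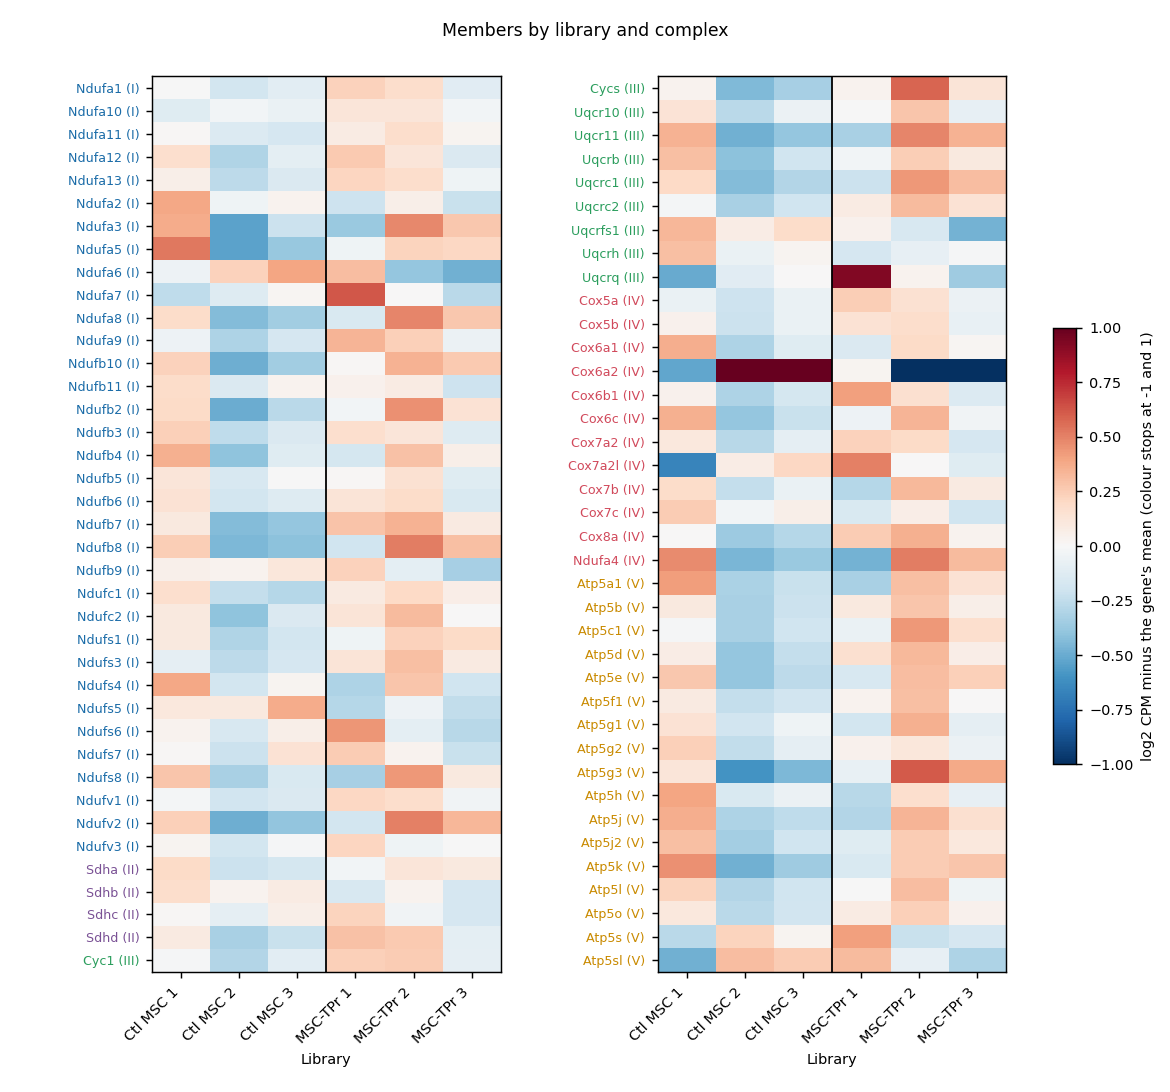
Deviation of tested members from their own mean in log2 CPM (colour, stopped at -1 and 1) by library (columns), ordered by complex and symbol in 2 panels with symbols coloured by complex. Most rows are pale, Ctl MSC 2 and 3 lie below the mean in most members, and Cox6a2 and Uqcrq stand out.

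The libraries were checked against their labels. The MSC-TPr label did not go with a higher level of any of the 3 transduced genes in all libraries: Psmb10 lay at 27.8, 8.81 and 8.38 CPM in Ctl MSC 1, 2 and 3 and at 8.96, 17.3 and 15.2 CPM in MSC-TPr 1, 2 and 3, Psmb9 was at 0.553 to 3.38 CPM and Psmb11 had 1 to 6 reads per library. Every direction given here is therefore one between library labels. The libraries numbered 1 stood apart from the other 2 of their label, with a chi-square per gene of 154 to 191 between them and those libraries against 4.76 for Ctl MSC 2 with 3 and 50.01 for MSC-TPr 2 with 3, so none was a duplicate. The summed level of 15 cell division genes was 1880 CPM in Ctl MSC 1 against 196 and 194 in Ctl MSC 2 and 3, and it was 200.3 CPM in MSC-TPr 1 against 1722 and 1824 in MSC-TPr 2 and 3. Of the 8 MSC markers, 7 were detected in every library, while Thy1 had 0 or 1 read. Eng lay at 142 to 204 CPM and Cd44 at 142 to 535.5 CPM, but Pdgfra ranged from 30.7 to 188 CPM and Col1a1 from 354 to 6912 CPM. Nt5e (CD73) was below in every MSC-TPr library, at 11.35, 20.2 and 17.4 CPM in Ctl MSC against 2.66, 4.20 and 5.24 CPM (log2 fold change -2.02, adjusted p = 0.0790 in edgeR and 2.1e-05 in DESeq2). Of the haematopoietic markers, Ptprc, Itgam and Emr1 had 0 to 2 reads and Csf1r 0 to 18, but Cd14 had 59 to 238 reads and Cd68 17 to 256, and the summed level of the list was 10.97 to 14.0 CPM in Ctl MSC and 12.8 to 17.4 CPM in MSC-TPr. Of the endothelial markers, Pecam1 and Cdh5 had 0 to 4 reads and Tek 1 to 6, while Kdr had 9 to 54. The part of these markers in the member levels was not tested.

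Over all 6 libraries no member was called different between MSC-TPr and Ctl MSC, and most differences were small and positive. With edgeR's quasi-likelihood test, a threshold of 0.05 on the adjusted p (Benjamini-Hochberg over 11974 genes) and a minimum of 0.5 on the size of the log2 fold change, 0 of 78 members were called, against 0.426% of all genes (51 of 11974, with 3 or 0.0251% higher and 48 or 0.401% lower). With DESeq2, 0 of 80 members with an adjusted p were called, against 5.05% of all genes. At an unadjusted p under 0.05 edgeR gave 4 of 78 members (5.13%; Cox6a2, Cox8a, Ndufs3 and Uqcrc2) against 15.0% of all genes, and DESeq2 gave 6, adding Atp5g3 and Ndufb7, against 16.4% of all genes. The fitted log2 fold change was above 0 in 64 of 78 members (82.1%) against 51.1% of all genes, with a median of 0.18 against 0.01. In bulk RNA, fewer cells of a type and less RNA per cell cannot be told apart.

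By complex, the median log2 fold change was 0.18 in complex I (28 of 35 above 0), 0.07 in complex II (3 of 4), 0.31 in complex III (8 of 10), 0.17 in complex IV (10 of 12) and 0.17 in complex V (15 of 17). With 1 library left out these medians ran from 0.0602 to 0.29, 0.0132 to 0.15, 0.19 to 0.39, 0.0754 to 0.25 and 0.0703 to 0.36 in the same order, each lowest without Ctl MSC 2 and highest without Ctl MSC 1. Values ran from -2.11 for Cox6a2 to 0.61 for Atp5g3. The 95% confidence interval reached a median of 0.46 to either side on the log2 scale, and 69 of 78 intervals lay between -1 and 1.

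**Figure D2:**
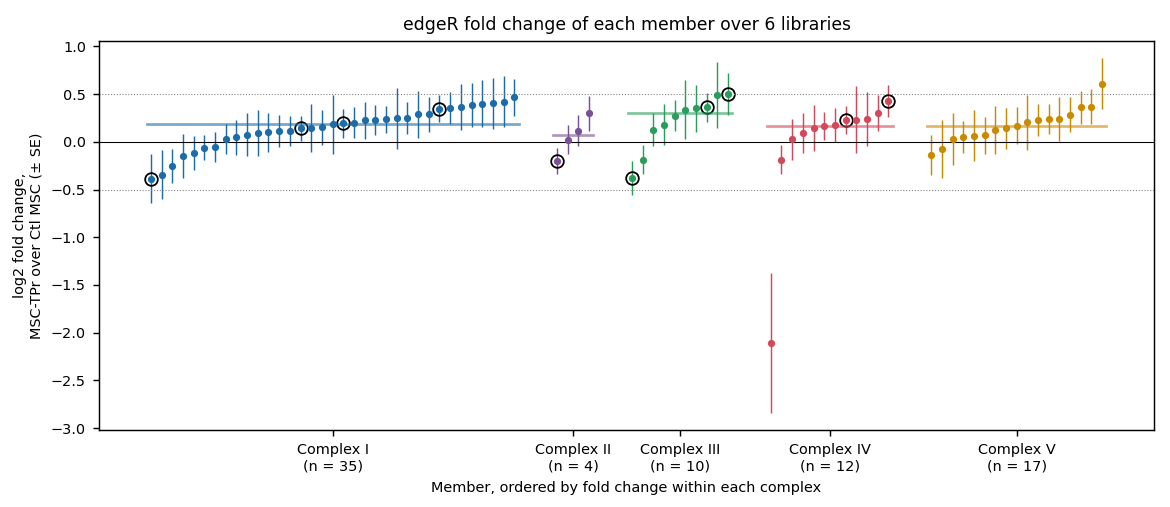
edgeR log2 fold change of MSC-TPr over Ctl MSC with its standard error (y axis) for each tested member, ordered within complexes I to V (x axis), with short lines at each complex's median, dotted lines at -0.5 and 0.5, and black rings on members whose groups did not overlap. The points sit mostly between 0 and 0.5, and Cox6a2 lies alone at -2.11.

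The groups did not overlap in 10 of 78 members (12.8%), against 22.6% of all genes tested. Higher in every library labelled MSC-TPr were 7 (8.97%, against 10.6% of all genes): Ndufa10, Ndufa11 and Ndufs3 of complex I, Cycs and Uqcrc2 of complex III, and Cox5a and Cox8a of complex IV. Lower in every one were 3 (3.85%, against 12.1%): Ndufs5, Sdhb and Uqcrfs1. No member of complex V separated. Both shares were below those of all genes, and none of the 10 passed the adjusted threshold.

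In complex I, Ndufs3, a core subunit of the arm that faces the matrix, was at 47.0, 41.8 and 44.4 CPM in Ctl MSC and at 54.7, 61.5 and 53.1 CPM in MSC-TPr. Every MSC-TPr library lay above every control library, by 0.35 ± 0.141 on the log2 scale (SE, edgeR adjusted p = 0.321, unadjusted p = 0.0461). Ndufs3 transcripts share 35.8% of their 50-base stretches with other annotated genes and overlap Kbtbd4 on the other strand, so its counts are uncertain.

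The accessory subunits Ndufa10 and Ndufa11 also separated, but by little. Ndufa10 lay at 61.3, 65.3 and 63.8 CPM in Ctl MSC and at 72.4, 72.3 and 65.4 CPM in MSC-TPr, and Ndufa11 at 30.8, 27.9 and 27.2 against 32.4, 34.6 and 31.2 CPM. Ctl MSC 2 and MSC-TPr 3 differed by under 1 CPM for Ndufa10, so that the separation rests on neighbouring values. Their log2 fold changes were 0.14 and 0.19, with edgeR adjusted p-values of 0.657 and 0.599. Ndufs5 was the lowest in fold change in complex I, at 2.90, 2.88 and 3.47 CPM against 2.21, 2.60 and 2.27 CPM (log2 fold change -0.38, edgeR adjusted p = 0.530), with the uncertainty of its copy given above.

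Ndufb7, an accessory subunit of the membrane arm, had the highest fold change of complex I. It lay at 51.1, 35.3 and 36.4 CPM in Ctl MSC and at 58.3, 60.6 and 50.8 CPM in MSC-TPr, where only Ctl MSC 1 reached into the other group. The log2 fold change was 0.47 ± 0.195 (SE, edgeR adjusted p = 0.333).

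In complex II, the 4 subunits varied by at most 1.53-fold over the libraries. Sdha, the flavoprotein that oxidises succinate and the highest in CPM, lay at 174, 132 and 135 CPM in Ctl MSC and at 149.9, 166 and 163 CPM in MSC-TPr, with overlapping groups and a log2 fold change of 0.12 (edgeR adjusted p = 0.785). Sdhd, a membrane anchor, had the highest fold change at 0.30 (edgeR adjusted p = 0.492), from 100.1, 75.4 and 80.9 CPM to 115, 113 and 87.9 CPM. Sdhb, the iron-sulfur subunit that passes electrons from Sdha to ubiquinone, went the other way: it lay at 88.3, 80.2 and 82.7 CPM in Ctl MSC and at 69.8, 79.8 and 69.5 CPM in MSC-TPr. All 3 MSC-TPr values were below all control values, MSC-TPr 2 by under 1 CPM, and the log2 fold change was -0.20 ± 0.137 (SE, edgeR adjusted p = 0.544).

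In complex III and cytochrome c, members of the same complex lay in opposite directions. Cycs, the mobile carrier between complexes III and IV, which also acts in apoptosis, was at 219, 158 and 171 CPM in Ctl MSC and at 219.6, 321 and 235 CPM in MSC-TPr. All MSC-TPr libraries lay above all control libraries, although Ctl MSC 1 and MSC-TPr 1 differed by under 1 CPM. The log2 fold change was 0.50 ± 0.216 (SE, edgeR adjusted p = 0.338), and 28.2% of its 50-base stretches occur in other annotated genes.

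Uqcrc2, a core protein of the matrix side of complex III, lay at 102, 82.7 and 90.1 CPM in Ctl MSC and at 109.7, 129 and 115 CPM in MSC-TPr. The groups were apart, with a difference of 0.36 ± 0.150 on the log2 scale (SE, edgeR adjusted p = 0.3303). Uqcrfs1, the Rieske iron-sulfur protein that takes electrons from ubiquinol, was at 128, 106 and 115 CPM in Ctl MSC and at 104, 90.3 and 72.9 CPM in MSC-TPr. It was the lowest of its complex, below in every MSC-TPr library, with a difference of -0.38 ± 0.179 on the log2 scale (SE, edgeR adjusted p = 0.379).

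In complex IV, Cox8a lay at 156, 121 and 128 CPM in Ctl MSC and at 186, 199 and 159 CPM in MSC-TPr. MSC-TPr 3 lay only a little above Ctl MSC 1. The log2 fold change of 0.43 ± 0.168 (SE) was the highest of the complex (edgeR adjusted p = 0.307, unadjusted p = 0.0407). Cox5a, which binds at the matrix side, separated by 0.23 (edgeR adjusted p = 0.504), from 135, 122 and 135 CPM to 167, 157 and 136 CPM, with MSC-TPr 3 and Ctl MSC 3 under 1 CPM apart. Cox7a2l, known for its part in joining complexes III and IV, was the highest in mean CPM among the complex IV members. Cox4i1 lies outside the symbol rule and was not ranked with them. Cox7a2l lay at 141, 234 and 257 CPM in Ctl MSC and at 315, 223 and 205 CPM in MSC-TPr. Here the libraries numbered 1 held both the lowest and the highest value, and the log2 fold change was 0.23 ± 0.283 (SE, edgeR adjusted p = 0.750).

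**Figure D3:**
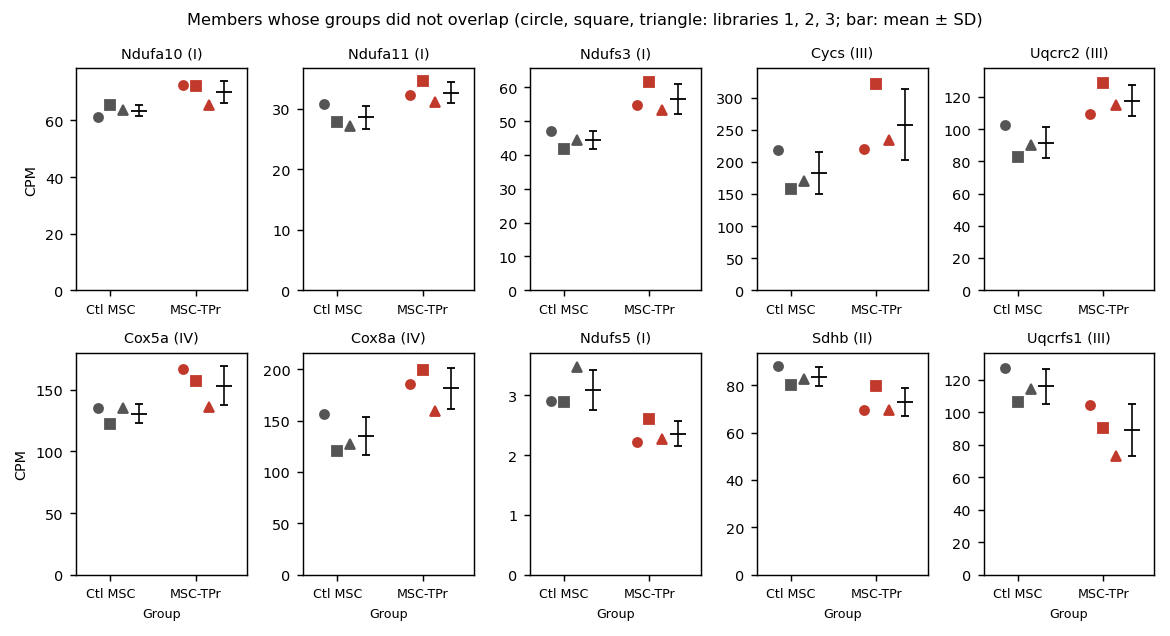
CPM by library (y axis, from 0) in Ctl MSC and MSC-TPr (x axis) for the 10 members whose groups did not overlap; circles, squares and triangles are libraries 1, 2 and 3, and the bar is the mean ± SD of 3 libraries. In Ndufa10, Ndufa11, Ndufs5, Cycs, Cox5a and Sdhb the nearest libraries of both groups differ by under 1 CPM.

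Cox6a2, the heart and skeletal muscle form of subunit 6a, had the widest range of the 78 members tested (highest over lowest library 12.4). It lay at 2.54, 11.4 and 13.2 CPM in Ctl MSC, that is 42, 214 and 240 reads, and at 3.71, 1.54 and 1.07 CPM in MSC-TPr, or 67, 26 and 23 reads. Ctl MSC 2 and 3 were high and the other 4 libraries low, so the groups overlapped through Ctl MSC 1 and MSC-TPr 1. The log2 fold change was -2.11 ± 0.731 (SE), with an adjusted p of 0.261 in edgeR and 0.0575 in DESeq2. Per length, Cox6a2 made up 1.65%, 10.8% and 10.9% of the Cox6a1 and Cox6a2 pair in Ctl MSC 1, 2 and 3, against 3.37%, 1.13% and 0.884% in MSC-TPr 1, 2 and 3. Cox6a1, the ubiquitous form, was at 156, 97.9 and 112 CPM and at 109.8, 139 and 123 CPM, with a log2 fold change of 0.03 (edgeR adjusted p = 0.966). Cox6a2 overlaps Itgad on the other strand. The libraries were made with a stranded kit, but the sources used here do not say whether reads were counted by strand.

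The other pairs of complex IV gave no call. Cox6b1 and Cox7a2 overlapped between groups, with log2 fold changes of 0.30 and 0.17 (edgeR adjusted p = 0.507 and 0.697), and Cox7b lay at 0.09 (edgeR adjusted p = 0.869). Ndufa4 was at 214, 112 and 119 CPM in Ctl MSC and at 111, 220.2 and 191 CPM in MSC-TPr, so that Ctl MSC 1 and MSC-TPr 1 each lay with the other group (log2 fold change 0.23 ± 0.351 (SE), edgeR adjusted p = 0.805). Its paralog Ndufa4l2, known as a hypoxia-induced form, had 74 reads in Ctl MSC 1 and 3 to 11 reads in the other 5 libraries.

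Complex V was led by Atp5b, at 1517, 1131 and 1219 CPM in Ctl MSC and at 1517, 1718 and 1475 CPM in MSC-TPr. Ctl MSC 1 lay among the MSC-TPr libraries, and the log2 fold change was 0.28 ± 0.187 (SE, edgeR adjusted p = 0.523). Atp5h, a subunit of the peripheral stalk, had the lowest fold change at -0.14 (edgeR adjusted p = 0.804), from 142, 97.3 and 104 CPM to 89.2, 121 and 102 CPM, with 47.9% of its 50-base stretches in other annotated genes.

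The c ring of the ATP synthase, through which protons pass, is made from 3 genes that encode the same mature protein, and their proportions differed between libraries. Atp5g3 had the highest fold change of all members, at 189, 115 and 127 CPM in Ctl MSC and at 165, 266 and 226 CPM in MSC-TPr. MSC-TPr 1 lay within the control range, and the log2 fold change was 0.61 ± 0.265 (SE, edgeR adjusted p = 0.343). Atp5g2 lay at 182, 129.7 and 145 CPM and at 159, 166 and 148 CPM (log2 fold change 0.05, edgeR adjusted p = 0.913), and Atp5g1 differed by 0.07 (edgeR adjusted p = 0.898). Per length, Atp5g3 held 39.7%, 35.5% and 35.3% of the 3 genes in Ctl MSC 1, 2 and 3, against 40.1%, 49.3% and 49.0% in MSC-TPr 1, 2 and 3, while Atp5g2 held 49.8%, 52.2% and 52.5% and then 50.2%, 40.1% and 41.8%. The 2 libraries numbered 1 lay together in these shares. Per length, Atp5g3 exceeded Atp5g2 only in MSC-TPr 2 and 3. In CPM, Atp5g3 exceeded Atp5g2 in both libraries numbered 1 as well. The shares depend on the length used: merged exons were 2181 bases for Atp5g3 and 1675 for Atp5g2, but the longest coding transcripts were 723 and 753.

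Much of the spread of members was between libraries of the same label. Ctl MSC 1 lay above both other control libraries in 64 of 78 members (82.1%), against 46.2% of all genes, and below both in 8 (10.3%), also against 46.2%. The summed member level was 9392 CPM in Ctl MSC 1 against 7109.9 and 7720.0 in Ctl MSC 2 and 3, and it was 8880.0 CPM in MSC-TPr 1 against 10168 and 8696 in MSC-TPr 2 and 3. MSC-TPr 1 lay above both other libraries of its label in 25 members (32.1%, against 41.1% of all genes) and below both in 32 (41.0%, also against 41.0%). These levels were seen beside the summed cell division levels given above, which were high in Ctl MSC 1 and MSC-TPr 2 and 3, and the part of cell division in them was not tested.

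**Figure D4:**
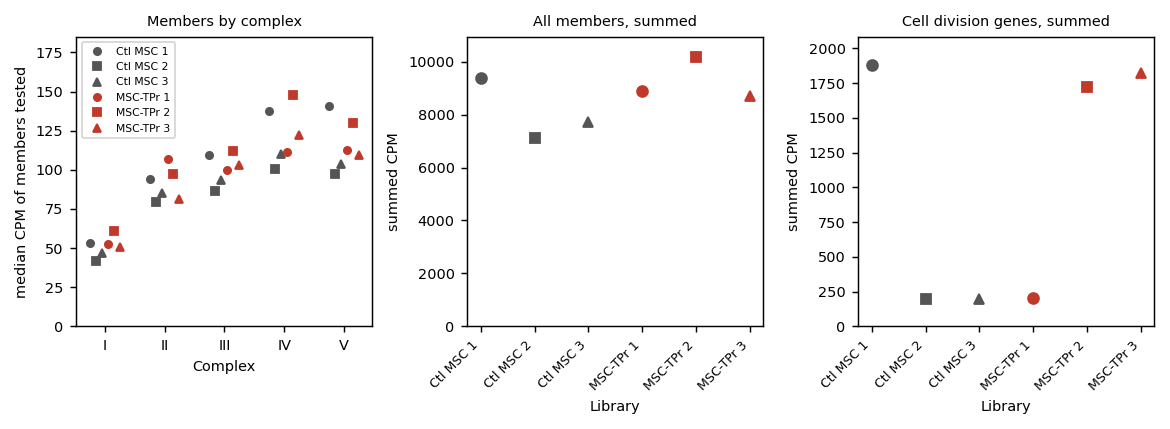
Median CPM of the tested members of each complex (left), summed CPM of all members (middle) and of 15 cell division genes (right), 1 point per library; circles, squares and triangles are libraries 1, 2 and 3 of Ctl MSC and MSC-TPr. Ctl MSC 2 and 3 are lowest in the summed member level at 7109.9 and 7720.0 CPM, while cell division separates Ctl MSC 1 and MSC-TPr 2 and 3 from the other libraries.

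The libraries numbered 1 lay to either side of the others of their label in different members. In 31 members (39.7%, against 32.0% of all genes) Ctl MSC 1 was above and MSC-TPr 1 below the other libraries of its label, among them 9 of 17 of complex V and 6 of 10 of complex III but 11 of 35 of complex I. Atp5a1, chosen after its values were seen, shows it: 743, 446 and 475 CPM in Ctl MSC 1, 2 and 3, against 445, 683 and 614 CPM in MSC-TPr 1, 2 and 3, with a log2 fold change of 0.07 over the 6 libraries. The opposite, Ctl MSC 1 below and MSC-TPr 1 above, was seen in 8 members (10.3%, against 31.5%): Atp5s, Atp5sl, Cox6a2, Cox7a2l, Ndufa10, Ndufa6, Ndufa7 and Uqcrq. Both libraries numbered 1 were above in 12 members (15.4%, against 6.46% of all genes), and both below in 0 (against 6.66%).

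Uqcrq, a small subunit of complex III chosen after its values were seen, varied most among the highly abundant members. It lay at 101, 133 and 144 CPM in Ctl MSC and at 273, 147 and 112 CPM in MSC-TPr. MSC-TPr 1 alone was high, and the log2 fold change was 0.49 ± 0.346 (SE, edgeR adjusted p = 0.549). Ndufa6 and Ndufa7, accessory subunits of complex I also chosen after their values were seen, lay at 62.7, 76.3 and 85.4 then 80.6, 49.7 and 46.6 CPM, and at 53.4, 58.3 and 64.5 then 98.2, 64.0 and 53.0 CPM. In both, MSC-TPr 1 lay well above the other MSC-TPr libraries.

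**Figure D5:**
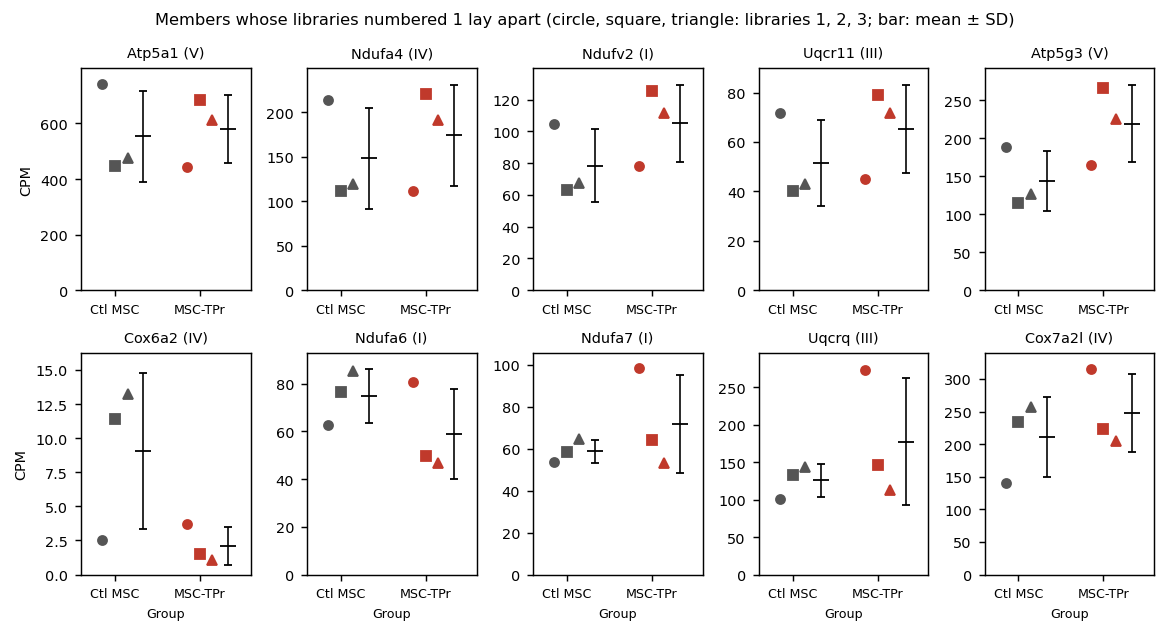
CPM by library (y axis, from 0) in Ctl MSC and MSC-TPr (x axis) for 10 members in which a library numbered 1 (circle) lay apart from libraries 2 and 3 (square, triangle); the bar is the mean ± SD of 3 libraries. In Atp5a1 the circles lie at 743 and 445 CPM, each beside the squares and triangles of the other group, and in Uqcrq the circle of MSC-TPr lies alone at 273 CPM.

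Without both libraries numbered 1, that is with Ctl MSC 2 and 3 against MSC-TPr 2 and 3, edgeR called 22 of 78 members (28.2%), against 40.0% of all 12122 genes tested. Of these, 20 were higher in MSC-TPr (25.6% of members, against 20.6% of all genes) and 2 lower (2.56%, against 19.4%). The higher ones were Ndufa3, Ndufa5, Ndufa8, Ndufb2, Ndufb7, Ndufb8, Ndufb10, Ndufs8 and Ndufv2 of complex I, Uqcr11, Uqcrc1 and Cycs of complex III and cytochrome c, Ndufa4 and Cox8a of complex IV, and Atp5c1, Atp5d, Atp5e, Atp5g3, Atp5j and Atp5k of complex V. The lower ones were Cox6a2 and Ndufa6, and complex II had none. The share of members called was below that of all genes. Of the 22 calls 20 were higher, while 51.5% of the calls over all genes were.

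This fit was chosen with earlier results known, and it leaves out the library of each label that stood apart from the others. The common dispersion of edgeR, its estimate of variation beyond counting error, was 0.0168 in it, against 0.1236 over all 6 libraries. The calls above and all adjusted p-values for these 4 libraries depend on that choice. They are given as a description and not as evidence for a difference between labels. The sizes over these 4 libraries were as follows. Atp5g3 rose by 1.03 ± 0.135 on the log2 scale (SE, edgeR adjusted p = 0.00241), the highest of the members. Ndufv2, a subunit of the NADH-binding module, rose by 0.86 (edgeR adjusted p = 0.00294), Uqcr11, the smallest subunit of complex III, by 0.86 (edgeR adjusted p = 0.00293) and Ndufa4 by 0.84 (edgeR adjusted p = 0.00370). Cycs rose by 0.76 (edgeR adjusted p = 0.0153) and Cox8a by 0.53 (edgeR adjusted p = 0.0268), while Cox6a2 fell by 3.25 on the log2 scale (edgeR adjusted p = 0.000374) and Ndufa6 fell by 0.74 (edgeR adjusted p = 0.00478). The members named for the 4 libraries and not for the 6 were chosen after their values were seen. The median log2 fold change was 0.30 over all members, against 0.00 over all genes, and 0.24, 0.11, 0.38, 0.23 and 0.44 in complexes I to V.

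Not every separation of the 6 libraries held at this size. Ndufs3, Uqcrc2 and Uqcrfs1 had edgeR adjusted p-values of 0.0413, 0.0193 and 0.0482 over the 4 libraries, with log2 fold changes of 0.41, 0.498 and -0.44, each short of 0.5 in size. Sdhb lay at -0.12 (edgeR adjusted p = 0.436), Ndufs5 at -0.38 (0.231), Cox5a at 0.19 (0.268), Ndufa10 at 0.10 (0.525) and Ndufa11 at 0.26 (0.132). In this comparison the 15 cell division genes were all called higher, with a median log2 fold change of 3.43, so that the member calls and the cell division levels cannot be told apart by it.

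Related genes of the pathway gave no call over 6 libraries either, with 0 called by edgeR in each list. Of 7 further genes outside the symbol rule, which are subunits apart from Cyct and the inhibitor Atpif1, 5 were tested. Their median log2 fold change was 0.37, with Atpif1 included. Cox4i1 separated, at 239, 219 and 242 CPM in Ctl MSC and at 350.1, 307 and 250.1 CPM in MSC-TPr (log2 fold change 0.37, edgeR adjusted p = 0.369). The highest was 2010107E04Rik, a small subunit of the ATP synthase, at 0.42 (edgeR adjusted p = 0.427), and the lowest was Atpif1, the inhibitor of the ATP synthase, at -0.34 (edgeR adjusted p = 0.549). The 13 mitochondrially encoded subunits had no counts under the symbols searched, and so could not be analysed here.

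Of 46 assembly factors, which build the complexes but are not part of them, 37 were tested, with a median of 0.11. Above 0 were 24, against 51.1% of all genes, and 6 were at an unadjusted edgeR p under 0.05, against 15.0%. Coa3, which acts early in the assembly of complex IV, lay lowest, at 33.9, 18.7 and 20.9 CPM in Ctl MSC and at 12.4, 9.70 and 12.8 CPM in MSC-TPr. All MSC-TPr libraries were below all control libraries, and the log2 fold change of -1.07 ± 0.284 (SE) had an adjusted p of 0.183 in edgeR and 0.0296 in DESeq2, which called it alone of this list. Nubpl, which delivers iron-sulfur clusters to complex I, was the highest, at 0.83 (edgeR adjusted p = 0.385).

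Of 14 regulators of mitochondrial gene expression tested, 1 was at an unadjusted edgeR p under 0.05, against 15.0% of all genes. The median log2 fold change was 0.19, and 13 were above 0, against 51.1% of all genes. Ppargc1a, the gene of PGC-1α, was the exception, and lay at 2.48, 13.0 and 12.6 CPM in Ctl MSC and at 3.65, 0.118 and 0.278 CPM in MSC-TPr. Ctl MSC 2 and 3 were high and MSC-TPr 2 and 3 nearly at 0, with Ctl MSC 1 and MSC-TPr 1 between them. The same control libraries, Ctl MSC 2 and 3, were the high ones for Cox6a2. This likeness was picked after the values were seen, and a link between Ppargc1a and Cox6a2 was not tested. The log2 fold change of Ppargc1a was -2.79 ± 1.23 (SE), with an adjusted p of 0.3497 in edgeR and 0.132 in DESeq2. Over the 4 libraries numbered 2 and 3 it was -5.90 (edgeR adjusted p = 0.000133). Ppargc1b, its relative, was highest, at 0.661 to 0.801 CPM in Ctl MSC and 0.830 to 2.13 CPM in MSC-TPr (log2 fold change 0.98, edgeR adjusted p = 0.354). Yy1, named after its values were seen, was called by DESeq2 alone (adjusted p = 0.00531), at 61.0, 58.0 and 59.2 CPM against 100.6, 88.7 and 85.9 CPM, with a log2 fold change of 0.63 and an adjusted p of 0.127 in edgeR.

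Of 16 genes of the TCA cycle and pyruvate dehydrogenase, which supply the electrons, all were tested, with a median of 0.15. Above 0 were 10, against 51.1% of all genes, and 2 were at an unadjusted edgeR p under 0.05, against 15.0%. Dlst, the succinyl transferase of the 2-oxoglutarate dehydrogenase complex, was the highest, at 119, 75.7 and 75.0 CPM in Ctl MSC and at 124, 153 and 144 CPM in MSC-TPr (log2 fold change 0.64 ± 0.226 (SE), edgeR adjusted p = 0.265). The groups did not overlap, by a narrow margin between both libraries numbered 1. Pdhb, a subunit of pyruvate dehydrogenase, was the lowest, at -0.41 (edgeR adjusted p = 0.520). The 15 cell division genes had a median of 0.69 over the 6 libraries, with 0 called by edgeR and 0 at an unadjusted p under 0.05.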

How the data were processed

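Reads of 6 libraries were processed by the authors, whose submitters' processing notes name CASAVA 1.8.2, Trimmomatic 0.35, TopHat2 2.1.0 and mm10. The counts of reads per gene were made by the authors with Htseq-count and are raw as deposited. The annotation and the strand setting of the counting are not given in the sources used here. Of the reads listed for each library, 79.2% to 86.2% were on genes, and the rest (no feature, ambiguous or not unique) stayed out of library sizes and tests. Symbols were matched to the GENCODE annotation of the same genome (21777 as written, 1278 through older symbols, 365 without a match) for coordinates and exon lengths.

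The edgeR package 4.0.16 (R 4.3.3) was used for TMM normalization, the filterByExpr filter and the quasi-likelihood test, with group alone in the model and Benjamini-Hochberg adjustment over all genes tested. A gene was called at an adjusted p under 0.05 with a log2 fold change no smaller than 0.5 in size. DESeq2 1.42.0 was the alternative. The standard error is the size of the log2 fold change divided by the square root of F. Steps were tested on simulated data. The planted fold changes were larger than those of nearly all members, so recovery of differences as small as theirs was not tested. Figures were drawn with Python 3.11.15 and matplotlib 3.10.9.

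The members, the lists and the fit without the libraries numbered 1 were chosen with earlier results of these data known. Named genes are members called or not overlapping, the highest in CPM and the highest and lowest in fold change of each complex, paralog pairs, the transduced genes and, for each list, those called or else the extremes in fold change; others are marked as chosen after their values were seen. Further alternatives were normalization by RLE or upper quartile, other filters on low counts, a block on the replicate number, correction for GC content and length, no minimum on the fold change and leaving out each library in turn. The values of 1 member are not reported here.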

Additional observations from a re-analysis of the deposited data

How the results depend on the processing

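Over the 6 libraries, 0 members were called under every alternative run on all 6, and also without any 1 of the libraries. Only leaving out both libraries numbered 1 gave calls, 20 higher and 2 lower. With the replicate block, 0 members and 0 genes of either direction were called, and the same was found with the block and the GC and length correction together. Same-numbered libraries deviated from their group means in opposite ways (Pearson r across genes -0.77, -0.62 and -0.62). Ctl MSC 1 went with MSC-TPr 2 and 3 (0.64 and 0.63), and MSC-TPr 1 with Ctl MSC 2 and 3 (0.73 and 0.74). Ctl MSC 2 with MSC-TPr 3 and Ctl MSC 3 with MSC-TPr 2 gave -0.58 and -0.60. Deviations within a group cancel out, so these values largely follow from the libraries numbered 1. Whether the numbers pair the libraries cannot be decided from them. Over all genes, 29 were called lower with at least 10 counts in every library, DESeq2 called 239 higher and 430 lower, and the 4 libraries numbered 2 and 3 gave 2498 higher and 2356 lower. Leaving out 1 library gave 0 to 11 higher and 0 to 105 lower, with 105 lower without Ctl MSC 1 and 11 higher without MSC-TPr 1.

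The median log2 fold change of the members ran from 0.0682 to 0.33 with 1 library left out, highest without Ctl MSC 1, that of the TCA cycle from 0.0296 to 0.30 and that of cell division from 0.21 to 2.92. Without both libraries numbered 1 the median was 0.30 over the members, 0.44 in complex V, 0.29 in the TCA cycle and 3.43 in cell division. Among the named members followed over these settings, directions turned for Cox6a1 at -0.0216 with upper quartile normalization and Cox7b at -0.0107 with the GC correction and block. Atp5s, which was not among them, turned at -0.0628 with the GC and length correction. Directions also turned without both libraries numbered 1 for 9 members: Cox7a2l (-0.20), Atp5h (0.15), Uqcrq (-0.0912), Atp5s (-0.32), Ndufa7 (-0.0684), Ndufs4 (0.13), Ndufs6 (-0.13), Ndufs7 (-0.0605) and Sdhc (-0.0830). With 1 library left out, values ran from -0.26 to 0.0520 for Atp5h, -0.11 to 0.25 for Cox6a1, -0.0515 to 0.24 for Cox7b, -0.11 to 0.17 for Atp5g1 and -0.0515 to 0.20 for Atp5g2. The cause was not tested.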
